A study of Mus musculus with 10 samples.

Results

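Myelin proteins, the enzyme that makes the main myelin glycolipid and the receptor that marks oligodendrocyte progenitors were followed in mouse visual cortex after removal of 1 eye. The 9 genes were Mbp, Mobp, Mag, Mog, Cnp, Mal, Cldn11, Ugt8a and Pdgfra. They were read by every probe set, a group of short array probes for 1 transcript, whose annotation gave 1 of these 9 symbols alone. This gave 17 of 12422 non-control probe sets, for 9 of 8251 genes. Of the 17, 15 probe sets of 8 genes passed a filter that kept 7453 probe sets in all, and the single Cnp probe set and 1 of 3 Pdgfra probe sets did not. The mice were wild type (C57Bl6), lost 1 eye on postnatal day 14 and gave tissue 4 days later, on postnatal day 18. The deprived group held 5 samples of visual cortex contralateral to the lost eye, and the non-deprived group 5 samples of the ipsilateral cortex. Both groups came from operated animals, so there was no intact control, and the non-deprived cortex had also lost its smaller, uncrossed input. Samples are described as pooled, and 4 mice are mentioned, but how animals were divided over samples is not said. A p-value here speaks of sample-to-sample spread, which may be technical.

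Oligodendrocytes arise from progenitors that divide in response to platelet-derived growth factor, then stop dividing and wrap axons in compacted membrane. In mouse cortex this takes place largely after birth, and the days between eye removal and tissue collection fall within that period. Mature oligodendrocytes make a characteristic set of myelin proteins and lipids, driven by the transcription factors Olig2, Sox10 and Myrf. In whole tissue, fewer cells of a type and less RNA per cell cannot be told apart.

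The DNA before the start site is shown for 4 of the myelin genes, since genes of mature oligodendrocytes share transcription factors whose motifs can be looked for there. RefSeq promoter windows (GRCm38.p6) matched 8 of the 9 genes, all but Mbp, and the 250 bases upstream of each start were searched. Capitals mark the core read by Sox factors (ACAANG) and the Myrf motif (CTGGCAC or CTGGTAC), on either strand, with no overlap between matches. Each sequence reads 5′ to 3′ along the gene.
Mobp, chr9:120149492-120149741, plus strand: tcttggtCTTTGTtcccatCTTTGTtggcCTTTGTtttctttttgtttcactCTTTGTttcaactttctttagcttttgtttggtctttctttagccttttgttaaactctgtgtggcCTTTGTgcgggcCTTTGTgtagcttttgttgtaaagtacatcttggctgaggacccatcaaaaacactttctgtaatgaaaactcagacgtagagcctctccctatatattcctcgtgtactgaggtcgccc
Mag, chr7:30914923-30915172, minus strand, the most upstream of its 3 annotated starts: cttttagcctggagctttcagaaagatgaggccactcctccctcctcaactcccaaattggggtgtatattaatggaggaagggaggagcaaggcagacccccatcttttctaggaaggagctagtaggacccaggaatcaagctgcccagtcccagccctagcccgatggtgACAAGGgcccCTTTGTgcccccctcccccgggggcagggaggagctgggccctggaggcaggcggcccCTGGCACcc
Mog, chr17:37023399-37023648, minus strand: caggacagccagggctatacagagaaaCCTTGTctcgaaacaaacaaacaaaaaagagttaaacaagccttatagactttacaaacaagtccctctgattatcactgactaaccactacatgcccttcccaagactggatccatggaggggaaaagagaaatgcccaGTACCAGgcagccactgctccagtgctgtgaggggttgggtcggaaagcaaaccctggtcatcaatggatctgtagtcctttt
Mal, chr2:127656696-127656945, minus strand: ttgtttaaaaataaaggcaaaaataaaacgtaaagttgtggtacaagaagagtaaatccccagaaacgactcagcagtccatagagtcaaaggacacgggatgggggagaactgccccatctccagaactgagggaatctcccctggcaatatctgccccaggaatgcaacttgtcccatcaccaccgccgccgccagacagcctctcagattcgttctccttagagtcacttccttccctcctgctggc

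The Mobp window held 6 Sox cores, the Mag window 2 and the Mog window 1, whereas the Mal window held none. The 8 genes had 10 windows, 3 of them for Mag, of which 2 overlap. A Sox core stood in 7 of the 10 windows, those of Mobp, Mag, Mog, Cnp and Pdgfra, or 5 of the 8 genes. It stood in 36.3% of the 32851 windows of all genes. CTGGCAC stood in 3 of the 10 windows, against 4.19% of all windows, among them that of Mag shown above, 9 bases before the start, and that of Cnp. The 3 windows belong to 2 of the 8 genes, since the 2 overlapping Mag windows held the same site. These 2 windows also shared their Sox cores. CTGGTAC stood in 1 of the 10, that of Mog, 83 bases before the start on the opposite strand, against 1.83% of all windows. The windows of Mal, Cldn11 and Ugt8a held neither motif. The TATA box letters TATAAA stood in 0 of the 10, against 12.4% of all windows. A match describes letters only, and its absence says nothing about a factor.

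No myelin or progenitor probe set passed an adjusted p of 0.05 between the hemispheres, and values of both groups overlapped for all 15 tested probe sets. Most of the differences were small and above 0: by the probe set with the highest mean, 7 of 8 genes had a higher mean log2 level in deprived cortex, and Mbp a lower one. The median log2 difference, deprived minus non-deprived, was 0.15 over the 8 genes, against 0.0066 over all 7453 tested probe sets. Of the 15 probe sets, 12 had a difference above 0 (80%), against 52% of all tested probe sets. These 12 are not independent, since probe sets of 1 gene share a target. The genes are not independent either, since the 7 myelin genes among them rose and fell together across the arrays (median Pearson r of 0.64). The shares of genes and probe sets above 0 therefore do not stand for separate observations. The limma fit across all tested probe sets called 0 probe sets at an adjusted p of 0.05, which is 0% of those tested, and the smallest member adjusted p was 0.992. At an unadjusted p of 0.05 it called 2 member probe sets, which is 13.3% of them against 4.79% of all tested. These were 1 higher, against 2.43% of all tested, and 1 lower in deprived cortex, against 2.36%. The groups did not overlap for 0.953% of all tested probe sets and for 0 of the 15 members. Without deprived replicate 4 the gene median was 0.08, and without non-deprived replicate 3 it was 0.07.

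**Figure D1:**
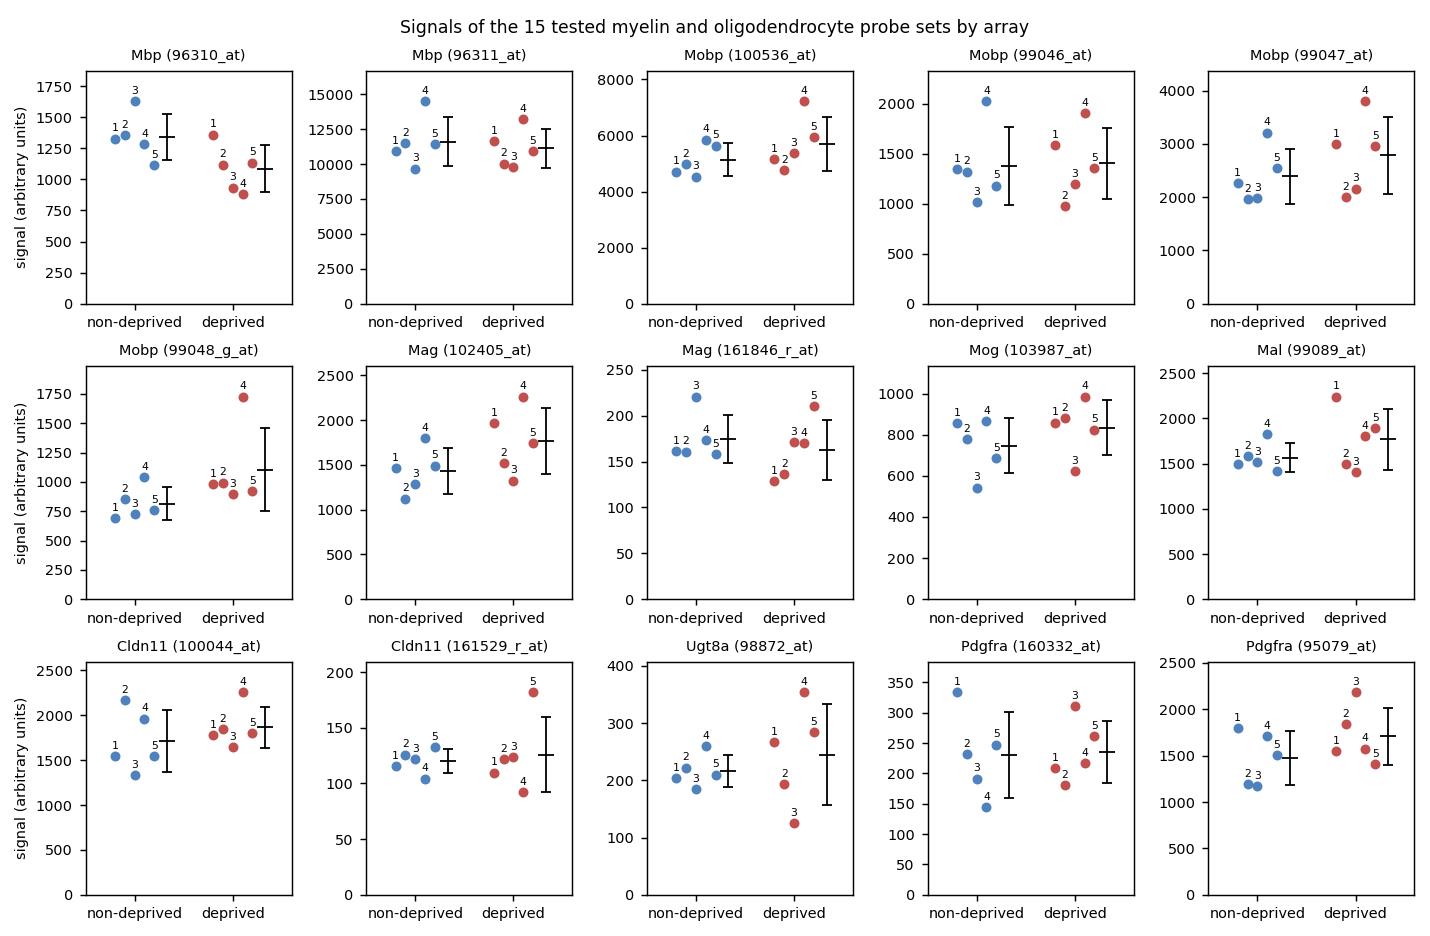
Signal (arbitrary units, linear axis from 0) of the 15 tested probe sets on each of the 10 arrays, with dots numbered by replicate (non-deprived in blue, deprived in red) and, beside them, the group mean with its SD (n = 5). The groups overlap in all 15 panels, and replicate 4 of both groups is high in most of the myelin panels.

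Mbp encodes myelin basic protein, which holds the cytoplasmic faces of the compacted membrane together. Its brighter probe set, 96311_at, read 11659.9, 10038, 9772, 13210.1 and 10957 in deprived replicates 1 to 5. It read 10943, 11512, 9668, 14516 and 11419 in non-deprived replicates 1 to 5. Replicate 4 was the highest and replicate 3 the lowest array in either group, and the groups overlapped over nearly their whole range. The means were 11127 ± 1385 and 11612 ± 1782 (SD, n = 5 each). The log2 difference was -0.06 ± 0.11 (SE), with a 95% interval from -0.29 to 0.18, and was 0.03 without non-deprived replicate 4.

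The other Mbp probe set, 96310_at, read 1359, 1118, 933, 878 and 1134 in deprived replicates 1 to 5. In non-deprived replicates 1 to 5 it read 1328, 1355, 1629.5, 1280.5 and 1117. Deprived replicates 3 and 4 lay below every non-deprived array, while deprived replicate 1 lay above 4 of the 5. The means were 1084 ± 190.0 in deprived and 1342 ± 185 in non-deprived cortex (SD, n = 5 each). Its log2 difference was -0.31 ± 0.13 (SE), equal to -19.2% in the mean signal, with a 95% interval from -0.58 to -0.04. In the limma fit the unadjusted p was 0.0275 and the adjusted p 0.992, so it did not pass. The Mbp locus also gives rise to golli transcripts from a start site further upstream. Which transcripts each probe set reads is not given in the sources used here. Across the 10 arrays the signals of the 2 probe sets correlated at a Pearson r of -0.15 (permutation p = 0.689) and a Spearman rho of -0.10 (permutation p = 0.784). Without the 2 arrays farthest from the median of 96310_at, r was 0.59.

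Mobp encodes another small basic protein of compact myelin, and 4 probe sets read it. The brightest, 100536_at, read 5158, 4763, 5376, 7231 and 5944 in deprived replicates 1 to 5. In non-deprived replicates 1 to 5 it read 4713, 4976, 4533, 5857 and 5641. Deprived replicates 4 and 5 lay above every non-deprived array, and the other 3 lay among them. The means were 5694 ± 959 and 5144 ± 579 (SD, n = 5 each), with a log2 difference of 0.14 ± 0.11 (SE) and a 95% interval from -0.10 to 0.38. It was 0.05 without deprived replicate 4 and 0.09 without non-deprived replicate 3.

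The probe set 99048_g_at, designed for a group of similar sequences, gave the largest difference among the tested member probe sets. It read 983, 995, 899, 1728 and 924 in deprived replicates 1 to 5, against 689.7, 854, 727, 1043 and 760.1 in non-deprived replicates 1 to 5. Deprived replicate 4 stood far above all other arrays, and non-deprived replicate 4 was the second highest. The means were 1106 ± 350.2 and 815 ± 141 (SD, n = 5 each). The log2 difference was 0.40 ± 0.17 (SE), with a 95% interval from 0.04 to 0.76, an unadjusted limma p of 0.0315 and an adjusted p of 0.992. Without deprived replicate 4 it was 0.23, with an unadjusted p of 0.0699. The other probe sets, 99047_at and 99046_at, had log2 differences of 0.20 ± 0.17 and 0.03 ± 0.19 (SE). That of 99047_at was 0.08 without deprived replicate 4 and 0.32 without non-deprived replicate 4. Both were highest on replicate 4 of either group, at 3803 and 1906 in deprived and 3212 and 2028 in non-deprived cortex. The estimate of 99046_at was -0.0026 under median scaling and -0.09 without deprived replicate 4.

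The 4 Mobp probe sets correlated positively with each other across the arrays. Their 6 pairs had Pearson r between 0.62 and 0.86. With p-values adjusted over the 12 pairs of probe sets that share a gene, 4 of the 6 passed by Pearson r (permutation, adjusted p from 0.0081 to 0.0335) and none by Spearman rho (smallest adjusted p = 0.0767). The pair 100536_at and 99047_at, for example, had r = 0.86 and rho = 0.77, and r = 0.73 without the 2 arrays farthest from the median of the first. For the other passing pairs that value was 0.70 (99046_at with 99047_at), 0.32 (100536_at with 99048_g_at) and 0.29 (99047_at with 99048_g_at). The pairs that did not pass had 0.46 (100536_at with 99046_at) and 0.15 (99046_at with 99048_g_at). The relations of 99048_g_at with the other probe sets thus rested largely on such arrays. Probe sets of 1 gene can share transcripts and probes, which makes such pairs a check of the measurement. Tested probe sets of the other genes did not track each other in this way. Their Pearson r was -0.15 for Mbp, -0.18 for Mag (102405_at with 161846_r_at) and -0.29 for Cldn11 (100044_at with 161529_r_at). For Pdgfra (160332_at with 95079_at) it was 0.25. Mag 161846_r_at and Cldn11 161529_r_at had mean signals of 169 and 123 over all arrays. These lie not far above the filter, at a signal of about 115, which limits what their r can show.

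Mag encodes myelin-associated glycoprotein, an adhesion molecule on the membrane next to the axon. The probe set 102405_at read 1969, 1519.8, 1323.5, 2263 and 1747 in deprived replicates 1 to 5. In non-deprived replicates 1 to 5 it read 1464, 1124, 1283, 1799 and 1492. Deprived replicates 1 and 4 lay above every non-deprived array, and deprived replicate 3 lay below 3 of them. The means were 1765 ± 369 and 1432 ± 253 (SD, n = 5 each), 23.2% higher in deprived cortex. This gave a log2 difference of 0.29 ± 0.15 (SE), with a 95% interval from -0.03 to 0.61 and an unadjusted limma p of 0.0708. The dimmer 161846_r_at, a probe set of relaxed design rules, had means of 163 ± 32.6 and 175 ± 26.4 (SD, n = 5 each) and a log2 difference of -0.10 ± 0.16 (SE), which was -0.02 without non-deprived replicate 3 and -0.19 without deprived replicate 5.

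Mog encodes a glycoprotein of the outermost myelin surface, which appears late as the sheath matures. It read 859, 882, 623.5, 986 and 826 in deprived replicates 1 to 5 and 855, 780.3, 543, 868 and 688 in non-deprived replicates 1 to 5. Replicate 3 was the lowest array in both groups, and deprived replicates 2 and 4 lay above every non-deprived array. The log2 difference was 0.16 ± 0.14 (SE), with a 95% interval from -0.14 to 0.47. It was 0.06 without non-deprived replicate 3, 0.10 without deprived replicate 4 and 0.26 without deprived replicate 3. The 250 bases before its start, shown above, were among those that held both a Sox core and a Myrf motif.

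Mal encodes a membrane-spanning proteolipid of lipid-rich domains, and Cldn11 the claudin that forms the tight junctions between myelin layers. Mal read 2241, 1492, 1407, 1807 and 1896 in deprived replicates 1 to 5. In non-deprived replicates 1 to 5 it read 1493, 1581, 1513, 1827 and 1418. Its highest value, in deprived replicate 1, lay above all others, and its lowest was in deprived replicate 3. Mal had a log2 difference of 0.16 ± 0.12 (SE), with a 95% interval from -0.10 to 0.42, and 0.07 without deprived replicate 1. Cldn11, by 100044_at, read 1782, 1842, 1644, 2258 and 1800.1 in deprived replicates 1 to 5 and 1544, 2169, 1335, 1962 and 1547 in non-deprived replicates 1 to 5. Deprived replicate 4 was the highest and non-deprived replicate 3 the lowest array. Cldn11 had a log2 difference of 0.14 ± 0.13 (SE), with a 95% interval from -0.14 to 0.41. It was 0.05 without non-deprived replicate 3, 0.07 without deprived replicate 4 and 0.23 without non-deprived replicate 2. The dimmer Cldn11 probe set of relaxed design rules, 161529_r_at, had means of 126 ± 33.8 and 120.0 ± 10.7 (SD, n = 5 each) and a log2 difference of 0.03 ± 0.18 (SE), which was -0.0079 under quantile normalization.

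Ugt8a encodes the transferase that makes galactosylceramide, the main glycolipid of myelin. It read 267, 193, 126, 354 and 284 in deprived replicates 1 to 5 against 204, 222, 185, 259.7 and 210.1 in non-deprived replicates 1 to 5. The deprived arrays held both the highest and the lowest values, and their SD was 87.9 against 27.8. The log2 difference was 0.10 ± 0.22 (SE), with a 95% interval from -0.36 to 0.57, and was -0.04 without deprived replicate 4 and 0.30 without deprived replicate 3. Cnp encodes the cyclic nucleotide phosphodiesterase of uncompacted myelin. Its only probe set was dim, at 17.4 to 123 in deprived and 10.3 to 54.8 in non-deprived arrays. Its mean log2 value lay below the filter, which corresponds to a signal of about 115, though deprived replicate 5 alone read above that. In the fit without the filter its log2 difference was 0.49 ± 0.38 (SE), with a 95% interval from -0.32 to 1.30, so the data say little about Cnp.

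Pdgfra encodes the receptor through which platelet-derived growth factor drives the division of oligodendrocyte progenitors. The brightest probe set, 95079_at, read 1551, 1839, 2185.5, 1576 and 1406 in deprived replicates 1 to 5. In non-deprived replicates 1 to 5 it read 1795, 1191, 1172, 1713.5 and 1507. Deprived replicates 2 and 3 lay above every non-deprived array, and deprived replicate 3 is an array on which most myelin genes were low. This probe set had a log2 difference of 0.22 ± 0.14 (SE), with a 95% interval from -0.09 to 0.52. It was 0.12 without deprived replicate 3, its highest array, and 0.14 without non-deprived replicate 3. The dimmer 160332_at ranged from 180.5 to 312 in deprived and from 144 to 334 in non-deprived arrays. Its log2 difference was 0.06 ± 0.20 (SE), and -0.08 without non-deprived replicate 4. The third probe set, 161202_r_at, lay between 6.6 and 30.3 on all arrays and was not tested.

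**Figure D2:**
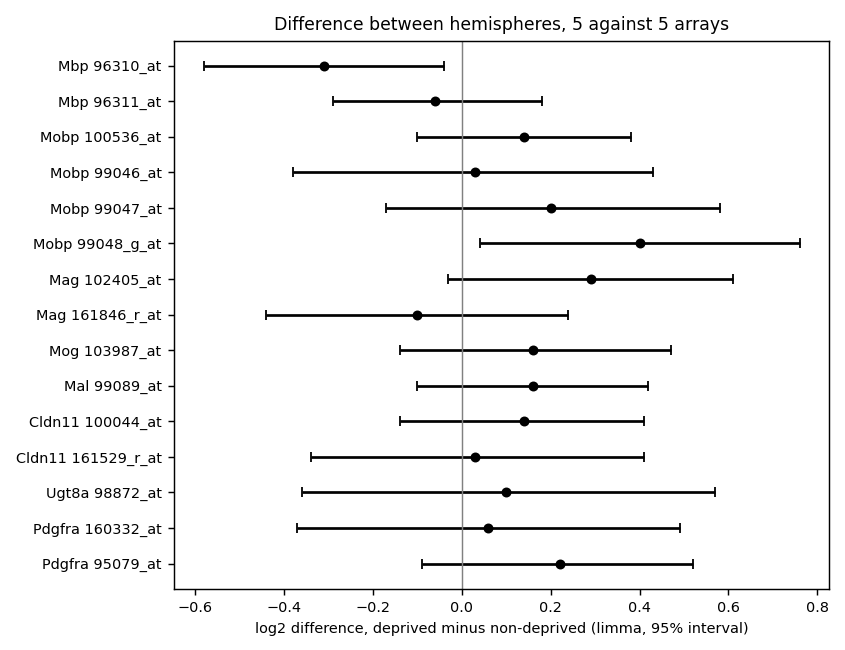
Log2 difference, deprived minus non-deprived, of the 15 tested probe sets (points) with 95% intervals from the limma fit (bars; 5 against 5 arrays). The intervals of Mbp 96310_at, from -0.58 to -0.04, and Mobp 99048_g_at, from 0.04 to 0.76, leave out 0 without adjustment, and the other 13 include it.

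The myelin genes also varied among arrays of the same group. The residual SD on the log2 scale had a median of 0.26 over the 15 probe sets, against 0.20 over all tested probe sets. It ranged from 0.19 for Mbp 96311_at to 0.40 for Ugt8a. For each array, the log2 values of the 7 tested myelin genes, by the probe set with the highest mean, were turned into z-scores over the 10 arrays and averaged. The mean z-score was 1.45 on deprived replicate 4 and 0.81 on non-deprived replicate 4, and all 7 genes stood above their own mean on both of these arrays. It was -1.18 on non-deprived replicate 3, where all 7 lay below their mean, and -0.94 on deprived replicate 3, where 6 did. Deprived replicates 1, 2 and 5 had 0.61, -0.31 and 0.46, and non-deprived replicates 1, 2 and 5 had -0.40, -0.14 and -0.36. Within either group the range was wider than the distance between the group means. Replicate 4 was high and replicate 3 low in both groups, so part of this range was common to same-numbered arrays. The labels do not describe such arrays as paired.

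**Figure D3:**
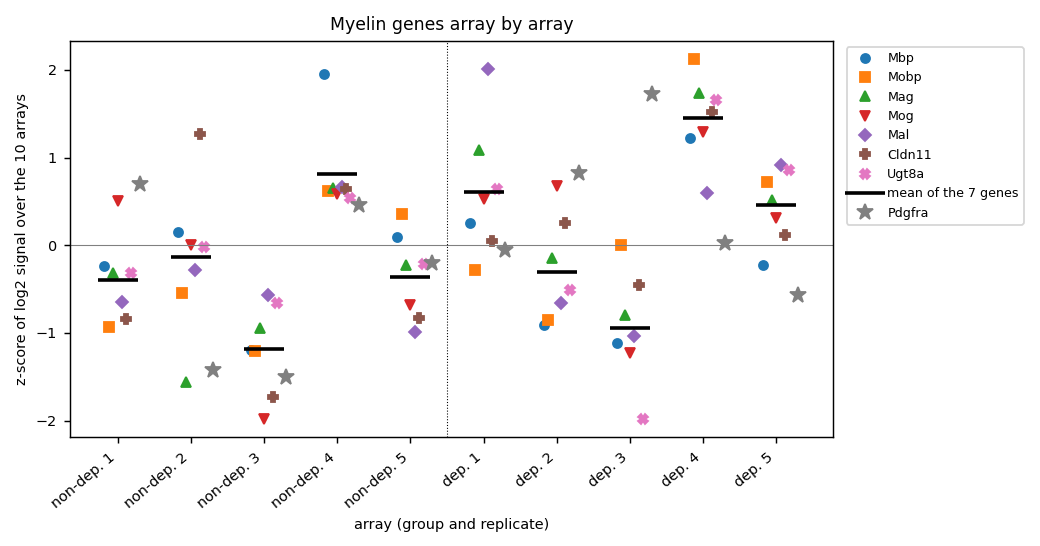
Z-score of the log2 signal over the 10 arrays for 7 myelin genes (coloured symbols), their mean (black bars) and Pdgfra (grey stars), with non-deprived arrays left and deprived arrays right of the dotted line. The mean runs from -1.18 on non-deprived replicate 3 to 1.45 on deprived replicate 4, and Pdgfra stands at 1.72 on deprived replicate 3, where the myelin mean is -0.94.

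All 21 pairs of the 7 myelin genes correlated above 0 across the 10 arrays, with Pearson r from 0.38 (Mobp and Mal) to 0.76 (Mag and Ugt8a), a median of 0.64 and a median Spearman rho of 0.62. The members give 36 pairs with Cnp and Pdgfra. Adjusted over the 36, no pair passed by Pearson r (smallest permutation adjusted p = 0.104) or by Spearman rho (0.136). Unadjusted, 12 pairs had a permutation p under 0.05 by Pearson r and 9 by Spearman rho, all of them between myelin genes. The weakest of the 12 had r = 0.64, a size that 6.52% of all 22723911 pairs of tested single-gene probe sets reached in either direction. The median r of all those pairs was 0.002. Of them, 15.9% reached the lowest r of the myelin pairs and 3.29% the median. Mag and Ugt8a had r = 0.76 (permutation p = 0.0105) and rho = 0.73 (permutation p = 0.0206), and r = 0.85 without the 2 arrays farthest from the Mag median. Mbp and Ugt8a had r = 0.73 and rho = 0.82 (permutation p = 0.00606), and r = 0.73 without the 2 arrays farthest from the Mbp median. Over the 21 pairs, leaving out such arrays gave a median r of 0.51, and 20 stayed above 0. The exception was Mobp with Mog, at r = -0.25 in place of 0.48. With each group centred on its own mean, the median r was 0.65 and all 21 pairs stayed above 0.

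Pdgfra had little relation to the myelin genes across the arrays. Its 7 pairs with them had r from -0.36 (Ugt8a) to 0.22 (Mag and Mog) and a median of 0.01. Against the mean z-score of the 7 genes its r was 0.0015. Each myelin gene, by contrast, had r between 0.66 (Mal) and 0.86 (Ugt8a) with the mean of the other 6. The difference between the receptor and the myelin genes in this respect was not tested. Among the remaining member probe sets, Mobp 99046_at, 99047_at and 99048_g_at had r of 0.84, 0.86 and 0.76 with the mean of the other genes, but Mbp 96310_at had -0.38, Cldn11 161529_r_at -0.31 and Mag 161846_r_at -0.20. Cnp had 0.31. Of the genes whose promoter windows are printed above, Mobp, Mag and Mog carried a Sox core and Mal, with the lowest r of the 7, did not. Ugt8a, with the highest r, carried neither motif, so the letters did not sort the genes by r.

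**Figure D4:**
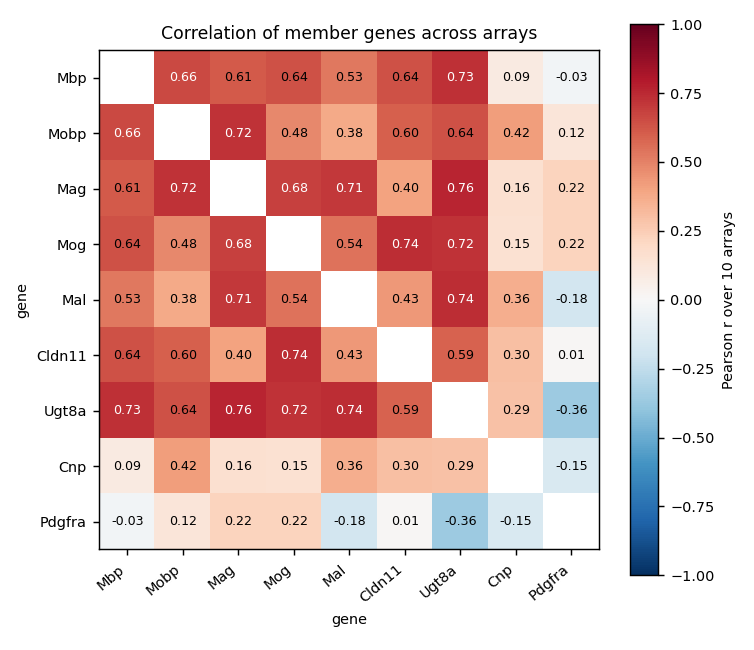
Pearson r over the 10 arrays between the log2 signals of the 9 member genes, each read by the probe set of highest mean (red above 0, blue below 0, value in each cell). The 21 cells among the 7 myelin genes from Mbp to Ugt8a lie between 0.38 and 0.76, while those of Pdgfra with them lie between -0.36 and 0.22.

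Measures of array quality and of other cells stood beside this pattern as follows. The mean z-score of the myelin genes correlated with the ratio of 3′ to 5′ actin signal, a measure of RNA integrity, at r = -0.41. It correlated with the array median at r = 0.30 and with the Gapdh 3′ to 5′ ratio at r = -0.27. No measure passed a test between the groups (smallest exact permutation p = 0.294, n = 5 each). Summed signals of marker genes correlated with the myelin mean at r = -0.26 for neurons (8 genes), -0.59 for astrocytes (7 genes), 0.21 for microglia (8 genes) and -0.59 for endothelium (7 genes). For erythrocytes r was 0.39 (3 genes), and for markers of striatum, thalamus or hippocampus 0.01 (9 genes). The 3 measured choroid plexus markers, Ttr, Kl and Folr1, had mean signals of 26.2 to 66.3, below the filter, and r was -0.37. Of peripheral nerve genes Pmp22 and Egr2 were measured (r = -0.22), and Egr2 is also regulated by activity in neurons. Genes within a list differed in sign. Of the astrocyte genes 4 of 7 had r above 0, among them S100b (0.72) and Slc1a2 (0.68), while Glul (-0.65) and Gja1 (-0.58) were below 0. Of the neuronal genes 5 of 8 were above 0, with Tbr1 at -0.67, and of the endothelial genes 2 of 7, with Flt1 at 0.78. The r values describe 10 arrays, and the part of these measures in the pattern was not tested. Between the groups the summed neuronal signal ranged from 30722 to 35712 in deprived and from 31366 to 34418 in non-deprived arrays. Astrocyte sums ranged from 18834 to 22943 and from 19831 to 25855, microglial sums from 5971 to 6487 and from 5635 to 6438, and endothelial sums from 2037 to 2226 and from 2072 to 2382. The erythrocyte sums ran from 3487 to 7949 in deprived and from 3782 to 5074 in non-deprived arrays. Those of striatum, thalamus or hippocampus ran from 4179.7 to 5154 and from 4137 to 4479.8. The sum of Pmp22 and Egr2 was lower in deprived cortex without overlap, at 747 to 1240.1 against 1318 to 1817. Egr2 made up most of the sum and did not overlap either, with a mean of 992 against 254 for Pmp22, a log2 difference of -0.71 ± 0.16 (SE) and an adjusted limma p of 0.447, whereas the groups overlapped for Pmp22. The neuronal markers Snap25 and Tbr1, with means of 12909 and 6321 over all arrays, were bright. None of the tested marker genes of these lists passed an adjusted p of 0.05.

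The 8 genes outside the members whose signals followed the myelin mean most closely had Pearson r of 0.86 to 0.93, among 6727 tested single-gene probe sets. They were Timp1 (0.93), an inhibitor of metalloproteinases, Srebf1 (0.89), a transcription factor of lipid synthesis, and Mlx (0.88), a factor of glucose-responsive transcription. Ech1 (0.88), an enzyme of fatty acid oxidation, Rasd1 (0.88), a small G protein, and Tubb4a (0.87), a tubulin that oligodendrocytes and neurons use, followed. Pa2g4 (0.87), which binds the receptor ErbB3, and Phlda3 (0.86), a p53 target, were the last. Across these 10 arrays 40 of the 6727, or 0.595%, reached r = 0.8. The median r of the 6727 was 0.02 and the lowest -0.93, so values as far from 0 occurred in the other direction too. None of the 8 passed between the hemispheres (limma, log2 differences from -0.0077 to 0.15, smallest unadjusted p = 0.346).

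Among other genes of the lineage, none passed either. Of 130 listed genes outside the members, 73 were tested, and 0 passed an adjusted p of 0.05 in either direction, as with 0% of all tested probe sets. At an unadjusted p of 0.05 the limma fit had 1 higher (Elovl1) and 1 lower (Bdnf) among the 73, or 2.74%, against 4.79% of all tested probe sets. Positive estimates numbered 45, or 61.6%, against 52% of all tested probe sets, and negative ones 28, and their median was 0.03.

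Among 6 tested genes for other myelin and glial membrane proteins, 4 estimates were above 0, with a median of 0.04. Pmp22, a membrane protein of peripheral myelin, had a log2 difference of -0.21 ± 0.13 (SE), the tetraspanin gene Cd9 one of 0.20 ± 0.19, and Gsn, the actin-severing gelsolin, one of 0.08 ± 0.12. The bright Gpm6b and Cd81 had -0.03 ± 0.07 and 0.05 ± 0.08. Across the arrays Gsn had r = 0.79 with the myelin mean, and Pmp22 had -0.13.

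Of 17 tested genes of lipid synthesis and metabolism, 9 estimates were above 0, with a median of 0.02. Elovl1, which elongates saturated very long fatty acids, had means of 319 ± 34.9 and 262 ± 32 (SD, n = 5 each), a log2 difference of 0.27 ± 0.12 (SE) and an adjusted limma p of 0.992. Its relative Elovl6 had -0.21 ± 0.11 and Arsa, the sulfatase that degrades the myelin lipid sulfatide, -0.15 ± 0.11. Scd2, a fatty acid desaturase, read 11338 ± 944 and 11189 ± 1443 (SD, n = 5 each), and the sterol synthesis gene Hmgcs1 had a log2 difference of -0.05 ± 0.11 (SE).

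Of 15 tested transcription factors of the lineage, 10 estimates were above 0, with a median of 0.08. Id2, an inhibitor of oligodendrocyte differentiation, had a log2 difference of 0.14 ± 0.11 (SE), Myrf, the activator of myelin genes, one of 0.13 ± 0.12, and Hes5, a Notch effector, one of 0.21 ± 0.21. Sox2, a progenitor factor, had -0.01 ± 0.09. Myrf read 485 ± 63.7 in deprived and 441 ± 65.1 in non-deprived cortex (SD, n = 5 each). Its r with the myelin mean was 0.71, the highest of the 15 factors, whose r ran down to -0.75, with 9 above 0.

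Among 6 tested progenitor genes the median was 0.01. The cell-cycle gene Ccnd1 had a log2 difference of 0.15 ± 0.16 (SE), the protease gene Plat -0.14 ± 0.18, the imprinted gene Nnat 0.16 ± 0.23, the proteoglycan gene Bcan 0.0083 ± 0.10 and the receptor phosphatase gene Ptprz1 0.01 ± 0.15. Nnat had r = 0.81 with the myelin mean, the highest of the 6, whose r ran down to -0.58, with 3 above 0. Of 10 tested genes of axon and glia contact, 6 estimates were above 0, with a median of 0.02. Ank3, the scaffold of the node of Ranvier, had a log2 difference of 0.21 ± 0.10 (SE), Rtn4, the gene of the myelin inhibitor Nogo, 0.09 ± 0.07, and the adhesion gene Cadm1 -0.18 ± 0.14.

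Of 19 tested genes of growth factors and their receptors, 12 estimates were above 0, with a median of 0.04. Bdnf, a neurotrophin, had the smallest p of the 73 genes, at a log2 difference of -0.56 ± 0.12 (SE) and an adjusted limma p of 0.36. Its 5 deprived arrays lay below the 5 non-deprived ones, as was known when the list was made. Erbb3, a neuregulin receptor of oligodendrocytes, had 0.21 ± 0.11 and the thyroid hormone receptor gene Thrb -0.38 ± 0.29, while the bright Thra and Fyn had 0.04 ± 0.09 and 0.06 ± 0.09. Pdgfa, the ligand of the Pdgfra receptor, which falls outside the rule for named genes and was added after its values were seen, read 1513 ± 202 and 1533 ± 88.2 (SD, n = 5 each).

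**Figure D5:**
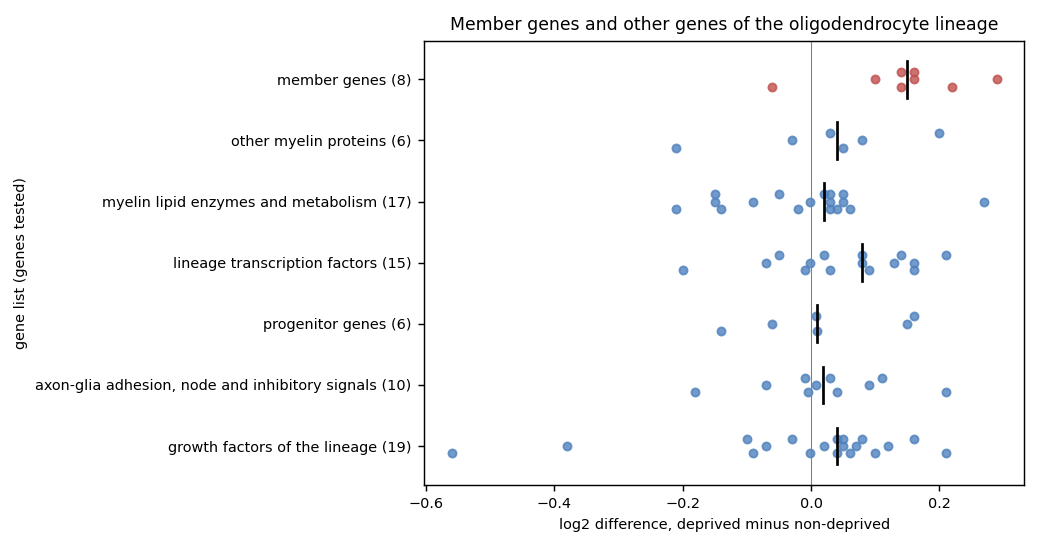
Log2 difference, deprived minus non-deprived, of the 8 tested member genes (red) and of the other tested genes of 6 lists (blue), 1 point per gene, read by whichever of its probe sets had the highest mean, with the list median as a black line. The member median is 0.15 and the list medians lie between 0.01 and 0.08, and the leftmost point, at -0.56, is Bdnf.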

How the data were processed

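The deposited values are MAS5 signal intensities on a linear scale, 1 per probe set and array (MAS5 per the submitters' processing notes; the sources used here give no version or scaling target). Per the labels' protocols, Trizol-extracted total RNA, about 10 µg, gave biotin-labelled cRNA. The mean of each array without its lowest and highest 2% of probe sets was 500 on all 10 arrays, and medians lay between 191 and 209. The arrays had thus been scaled before deposit, and differences are relative to the array's average. Arrays carry no read depth, and their number limits the precision. No detection calls were used.

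Intensities were converted to log2(value + 16), 16 being the 10th percentile of all values, which understates differences of dim probe sets. The 66 control probe sets were left out, and probe sets with a mean log2 value under the 40th percentile were not tested. Of the 12422 probe sets, 10833 had 1 symbol, 396 several and 1193 none, and symbols were updated through Entrez IDs (10817 matched). Deprived was compared with non-deprived in limma 3.58.1 (R 4.3.3, intensity trend, no covariate) over 7453 probe sets with Benjamini-Hochberg adjustment. Limma was checked on simulated data. For quality measures, all 252 ways to assign the arrays were enumerated (exact permutation test, two-sided). Correlations were tested with two-sided permutation tests of 100000 resamples (scipy 1.17.1). The tests of probe sets of the same gene and the single-array omissions for correlations were added after the data were seen.

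The members and lists were chosen with earlier results of these data known. All member probe sets are named, and of each list the 3 genes with the smallest p and the 2 brightest. The 8 genes most like the myelin mean were ranked by Pearson r.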

Additional observations from a re-analysis of the deposited data

Results flagged for a closer look

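Each group of 5 arrays was examined for 1 array far from the others, over the 17 member probe sets, which makes 34 groups. By chance about 1 in 20 groups would stand out, and 3 did. For Mobp 99048_g_at, deprived replicate 4 read 1728.1 against 899 to 995 on the other deprived arrays. For Mag 161846_r_at, non-deprived replicate 3 read 220.8 against 158 to 174 on the other non-deprived arrays. For the dim Pdgfra 161202_r_at, which was not tested, non-deprived replicate 5 read 6.6 against 23.9 to 30.3.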

How the results depend on the processing

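No member probe set and no other gene of the lineage passed an adjusted p of 0.05 under any of 17 alternatives in limma, and the smallest member adjusted p was 0.42. The count of all tested probe sets that passed, 0 in the report, was 2 with a pseudocount at the 20th percentile, 2 with a filter at the 60th percentile, 6 with the replicate number as a block, and 0 to 5 with single arrays left out. The count of members at an unadjusted p under 0.05, 2 in the report, was 1 under median scaling, 4 with the replicate block and 0 to 3 with single arrays left out. It was 0 without deprived replicate 4 or non-deprived replicate 3. The median log2 difference of the genes was 0.07 to 0.21 with single arrays left out and 0.12 with all probe sets of a gene averaged. Of 251 member estimates under alternatives, 239 kept their direction. Some of these could not turn. The changes of filter, the fit without intensity trend and the replicate block used the same log2 values and equal groups. They leave the estimate itself unchanged. With single arrays left out, those that turned were Mbp 96311_at (-0.12 to 0.03), Mobp 99046_at (-0.09 to 0.18), Cldn11 161529_r_at (-0.09 to 0.13), Ugt8a (-0.04 to 0.30) and Pdgfra 160332_at (-0.08 to 0.20). Mobp 99046_at was also -0.0026 under median scaling and Cldn11 161529_r_at -0.0079 under quantile normalization. The cause was not tested. Same-numbered arrays of the 2 groups correlated in their deviations from the group means at 0.02 to 0.23 over all tested probe sets, 4 of 5 above 0.1, and other pairs at -0.25 to 0.09. The labels do not say that numbers pair samples, and 9 of 10 arrays correlated best with their own number, a hint from the data only. Under the replicate block the 4 members, of 15 tested, were Mbp 96310_at, Mobp 99047_at, Mobp 99048_g_at and Mag 102405_at. Their adjusted limma p was 0.42 or more. Of all tested probe sets, 6.33% had an unadjusted p under 0.05 in that fit. The 3 of Mobp and Mag were higher in deprived cortex, against 3.14% of all tested, and that of Mbp was lower. The block changed the SE to a median of 0.68 times its value over the members and 0.92 times over all tested probe sets. Among pairs of member genes, 0 passed with groups centred or after quantile normalization. With single arrays left out, the median r of the 21 myelin pairs was 0.51 (without deprived replicate 4) to 0.72, and all 21 stayed above 0. Dim probe sets of Cnp and Pdgfra lay near background, which limits what they can show.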
